A study of Mus musculus with 8 samples.

Results

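The core lymphatic identity markers considered here are 10 genes, Prox1, Lyve1, Pdpn, Mmrn1, Reln, Stab1, Tbx1, Fxyd6, Nts and Thy1, followed in lymphatic endothelial cells of mouse ear skin under contact hypersensitivity, an allergic skin inflammation. They were chosen by name, as every probe set whose platform annotation names exactly one of them. This gave 15 probe sets, of 34945 that name 1 gene, and the 10 genes stand among 18193 named this way. The array carried 3 probe sets for Prox1, 2 each for Lyve1, Mmrn1 and Reln, and 1 for each of the other 6 genes.

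Inflamed samples came from the ears of female FVB mice whose abdomen and paws had been painted with 2% oxazolone, a contact allergen. A challenge with 1% oxazolone (10 µl per side of each ear) followed after 5 days, and ear skin was collected 24 hours later. The untreated group was healthy female FVB mice given no oxazolone, per their labels. Each group held 4 samples, each pooled from the ears of 3 mice aged 8 to 10 weeks, and each inflamed sample formed a pair with the untreated sample of the same number, sorted and extracted on the same day. The cells were sorted as CD31 positive, podoplanin positive and CD45 negative, and their amplified cDNA was hybridised to single-colour arrays. Podoplanin is the product of Pdpn, so the sort itself selected on the protein of 1 of the 10 genes.

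The inner lining of lymphatic vessels, which carry tissue fluid and immune cells out of the skin, is made of these cells. Their identity is set by the homeobox transcription factor Prox1, which in mice is induced with the help of Sox18 and works with the nuclear receptor Nr2f2, and whose loss in adult mice lets lymphatic endothelium take on blood vessel features. The other members are read as marks of that state. Lyve1, podoplanin, stabilin 1 and Thy1 are surface proteins, multimerin 1, reelin and neurotensin are secreted, Tbx1 is a T-box transcription factor needed for lymphatic development in mice, and Fxyd6 belongs to a family of small regulators of the sodium-potassium pump.

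Inflamed skin gave lower transcript signals for 4 of the 10 genes: Prox1 on 2 of its 3 probe sets, Mmrn1 and Reln on 1 of 2 each, and Fxyd6 on its only one. A gene counts here if any of its probe sets passed, which favours genes with several, and the share of all genes by this rule was not counted. By the brightest probe set of each gene, 3 of the 10 were lower, without Prox1, against 2.82% of 10843 genes. Lyve1, Pdpn, Stab1, Tbx1, Nts and Thy1 did not pass the test in either direction. Nts and Pdpn were the only members with a positive mean difference. Both were higher in all 4 pairs, as were 12.6% of all probe sets tested. Values are MAS5 signals on the log2 scale throughout, and a difference is inflamed minus untreated, averaged over the 4 pairs, with its standard error (SE) from limma. A probe set passed the test at an adjusted p under 0.05 in limma, fitted over 22519 probe sets with the pair as a block and with the Benjamini-Hochberg adjustment over all of them. In a bulk sample, fewer cells of a type and less RNA per cell cannot be told apart.

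The promoters of the 4 genes that passed are printed because these are the members with a probe set that fell. They are RefSeq sequences on GRCm38.p6, from 250 bases before to 50 bases after an annotated start. Of the 10 genes, 8 matched the promoter table (all but Lyve1 and Thy1). Prox1 lies at chr1:190170778-190171077 on the minus strand (the more upstream of 2 starts listed), Mmrn1 at chr6:60944067-60944366 on the plus strand, Reln at chr5:22344656-22344955 on the minus strand and Fxyd6 at chr9:45369935-45370234 on the plus strand. Capitals mark matches to any of 7 motifs.
Prox1: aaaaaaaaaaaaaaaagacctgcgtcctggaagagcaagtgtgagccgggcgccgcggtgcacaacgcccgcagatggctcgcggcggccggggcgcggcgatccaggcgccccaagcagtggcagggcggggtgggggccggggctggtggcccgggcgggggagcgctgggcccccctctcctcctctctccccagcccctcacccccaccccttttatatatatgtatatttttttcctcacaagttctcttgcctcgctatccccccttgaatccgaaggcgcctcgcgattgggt
Mmrn1: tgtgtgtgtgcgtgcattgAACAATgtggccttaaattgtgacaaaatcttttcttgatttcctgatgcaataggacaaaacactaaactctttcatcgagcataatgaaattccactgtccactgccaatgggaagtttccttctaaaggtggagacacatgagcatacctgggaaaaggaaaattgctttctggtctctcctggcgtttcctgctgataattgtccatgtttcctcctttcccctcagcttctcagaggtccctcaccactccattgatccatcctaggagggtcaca
Reln: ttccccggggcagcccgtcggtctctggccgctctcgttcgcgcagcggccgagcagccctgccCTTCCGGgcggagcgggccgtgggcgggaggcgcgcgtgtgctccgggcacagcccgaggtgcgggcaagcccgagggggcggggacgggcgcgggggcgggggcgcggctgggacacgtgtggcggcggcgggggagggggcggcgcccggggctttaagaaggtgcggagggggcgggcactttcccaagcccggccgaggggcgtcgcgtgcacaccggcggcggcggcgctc
Fxyd6: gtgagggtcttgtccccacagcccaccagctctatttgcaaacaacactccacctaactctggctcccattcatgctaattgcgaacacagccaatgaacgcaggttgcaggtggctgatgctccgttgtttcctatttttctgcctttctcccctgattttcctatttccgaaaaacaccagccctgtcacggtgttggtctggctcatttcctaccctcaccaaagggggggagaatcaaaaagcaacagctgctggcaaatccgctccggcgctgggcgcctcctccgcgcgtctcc

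The motifs, searched on both strands, were AACAAT for SOX factors, AGGTCA as the half-site of nuclear receptors such as Nr2f2, GTAAACA for forkhead factors, CCGGAAG for ETS factors, TTCNNNGAA for STAT factors, TGANTCA for AP-1 and the NF-kB motif. Mmrn1 held the SOX letters, starting 231 bases before its start, a motif present in 10.7% of all 32851 promoters of that length. Reln held the ETS letters on the opposite strand, 186 bases before its start, a motif in 8.86% of promoters. Prox1, at both listed starts, and Fxyd6 held none of the 7. Of the members that did not pass, Nts held the AP-1 letters (7.81% of promoters) and Pdpn the nuclear receptor half-site (16.3%) and the forkhead letters (3.65%). A match is a description of the letters in this window and not a binding site.

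No member was lost to the filter on low signals: all 15 probe sets were tested, and 119 of their 120 values lay above the background ceiling of their array, the 95th percentile of its bacterial control probe sets. The exception was the dimmer Reln probe set in inflamed sample 1. Of all probe sets other than controls, 53.5% to 62.6% lay above the ceiling, depending on the array. Other genes that define these cells were bright as well. Flt4, the receptor for VEGF-C, averaged 11.93 ± 0.31 (SD, n = 4) over inflamed samples and 12.30 ± 0.17 over untreated samples on its brighter probe set, and Pecam1, which encodes CD31, 9.78 ± 0.85 and 10.50 ± 0.10. Neither passed the test (adjusted p = 0.141 and 0.188, limma). Ptprc, which encodes the CD45 that the sort excluded, had 1 probe set above the ceiling in 3 of 4 inflamed and 0 of 4 untreated samples and another in 0 of 4 inflamed and 2 of 4 untreated samples. The log2 ratio of 3' to 5' Gapdh probe sets, a sign of RNA quality, was 2.58 to 3.30 in inflamed and 3.40 to 4.16 in untreated samples and lower in all 4 pairs. The same ratio for Actb was -0.12 to -0.01 in inflamed and -0.15 to -0.00 in untreated samples, and higher in 2 of the 4 pairs. The part of either in the results was not tested.

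Of the 22519 probe sets tested, 715 were higher in inflamed samples (3.18%) and 545 lower (2.42%), so 56.7% of the changes were rises, against 76.6% after median centring of the arrays and 90.5% after scaling to the pan-endothelial genes. Among the 15 probe sets of the lymphatic markers, 0 were higher and 5 lower. At an unadjusted p under 0.05 the counts were 2 higher and 9 lower, where 9.47% of all probe sets were higher and 11.2% lower by that rule. Their median difference was -0.91, against -0.13 over all probe sets tested. The inflamed and untreated values did not overlap for 5 of the 15 with inflamed samples lower, where 6.59% of all probe sets did this, and for 1 with inflamed samples higher, where 5.62% did. Lower signals in all 4 pairs were seen for 9 of the 15, against 15.3% of all probe sets, and higher signals in all 4 pairs for 2, against 12.6%. The genes were chosen with earlier results of these data known, so these shares describe the members and test nothing about them.

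**Figure D1:**
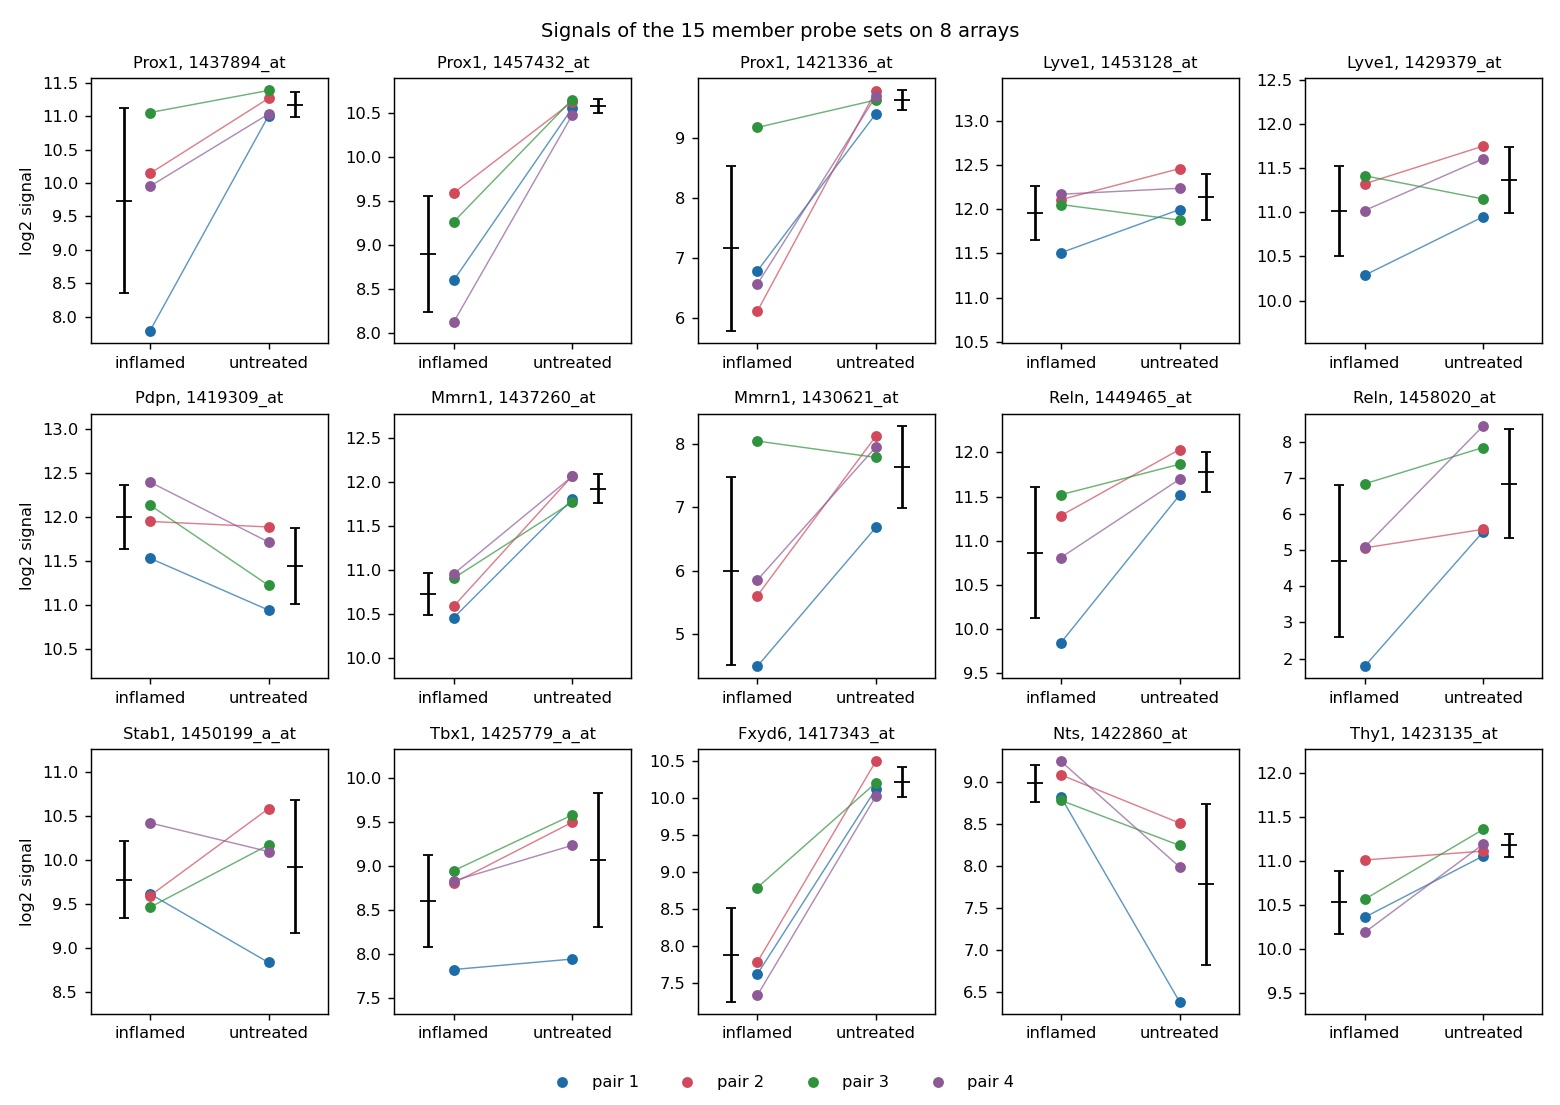
Log2 signal of each of the 15 probe sets (panels) in inflamed and untreated samples. Coloured points are samples, lines join the 2 samples of a pair, and black bars give the mean and SD of 4 samples. The 4 untreated values of each Prox1 probe set lie close together, and the inflamed ones are spread more widely and lie lower, except that inflamed sample 3 on 1437894_at (11.05) lies within the untreated range.

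Prox1 was the member with 3 separate readings, which differed in size and spread. Probe set 1457432_at had 8.60, 9.59, 9.26 and 8.12 in inflamed samples 1 to 4, against 10.55, 10.62, 10.65 and 10.47 in untreated samples 1 to 4. Every inflamed value lay below every untreated one. It fell by 1.68 on the log2 scale (SE 0.27, 3.21-fold lower, adjusted p = 0.00781, limma), with falls in the single pairs between -2.35 and -1.03.

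Probe set 1421336_at of Prox1 had 6.79, 6.12, 9.17 and 6.57 in the inflamed samples, against 9.40, 9.78, 9.63 and 9.69 in the untreated samples. The groups did not overlap here either, but inflamed sample 3 stayed near the untreated values while the other 3 were far below them. It fell by 2.46 on the log2 scale (SE 0.51, 5.51-fold lower, adjusted p = 0.0221, limma). Its difference in pair 3 was -0.46, and in the other pairs it lay between -3.66 and -2.61. The call of this probe set ended without pair 1, 2 or 4 (adjusted p = 0.0951, 0.0992 and 0.0852).

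The brightest Prox1 probe set, 1437894_at, had 7.79, 10.14, 11.05 and 9.95 in inflamed samples, against 11.00, 11.26, 11.38 and 11.03 in untreated samples. Inflamed sample 3 reached the untreated range and inflamed sample 1 was the lowest by far. The difference of -1.44 ± 0.38 (SE; 95% interval -2.30 to -0.58) did not pass (adjusted p = 0.0612, limma), and without pair 1 it was -0.84. It did pass under quantile normalization (adjusted p = 0.0347), cyclic loess normalization (0.0385), a pseudocount of 16 (0.0437) and the stricter filter (0.0452).

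All 3 Prox1 probe sets were lower in all 4 pairs, and they ranked the inflamed samples differently. Inflamed sample 1 was lowest on 1437894_at, sample 2 on 1421336_at and sample 4 on 1457432_at. The SD over the 4 inflamed samples was 1.38, 0.66 and 1.37 on 1437894_at, 1457432_at and 1421336_at, against 0.18, 0.08 and 0.16 over the 4 untreated samples. Inflamed samples thus had 7.53, 8.29 and 8.45 times the SD of untreated samples. Which stretches of the transcript the probe sets read was not used here, so a cause of their disagreement was not tested.

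The samples also differed in other cell markers. The summed signal of 24 pan-endothelial genes was 8988, 16979, 18000 and 15377 in inflamed samples 1 to 4, against 14354, 22830, 20897 and 23903 in the untreated ones. Of the inflamed samples, number 1 was lowest on this sum and number 3 highest, the same 2 samples as the lowest and highest on 1437894_at. On 1457432_at the lowest inflamed sample was number 4 and the highest number 2, and on 1421336_at the lowest was number 2 and the highest number 3. The untreated samples also differed on this sum, while their Prox1 signals lay close together. The summed signal of 15 fibroblast genes was 26377, 14563, 11469 and 17684 in inflamed samples and 21675, 12487, 4645 and 16037 in untreated samples. It was higher in the inflamed sample of all 4 pairs, and none of the 15 genes was at or under the ceiling on all arrays. The part of these measures in the Prox1 differences was not tested.

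**Figure D2:**
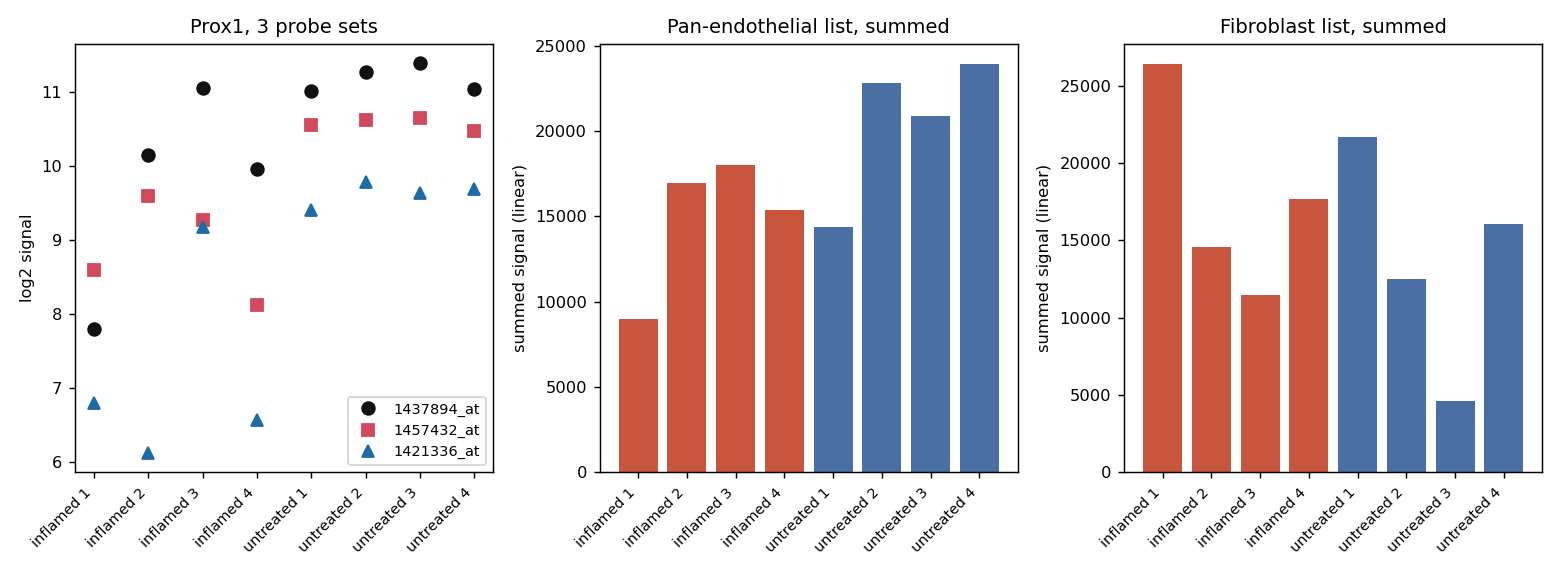
Left, log2 signal of the 3 Prox1 probe sets in the 4 inflamed and then the 4 untreated samples. Middle and right, summed linear signal of the pan-endothelial and fibroblast genes in the same samples, inflamed in red and untreated in blue. Inflamed sample 1 has the lowest pan-endothelial sum (8988) and the highest fibroblast sum (26377).

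Tbx1, the other transcription factor, gave 7.82, 8.81, 8.94 and 8.83 in inflamed samples, against 7.94, 9.49, 9.58 and 9.23 in untreated samples. Each inflamed value lay below that of its own pair, yet the groups overlapped, because both samples of pair 1 were low. Its difference was -0.46 ± 0.29 (SE; 95% interval -1.12 to 0.20; adjusted p = 0.426, limma) and its sign turned when arrays were scaled to the pan-endothelial genes (0.25).

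Fxyd6, the pump regulator, passed on its single probe set. Its signals were 7.62, 7.78, 8.79 and 7.33 in inflamed samples, against 10.12, 10.50, 10.21 and 10.03 in untreated samples, with a gap of more than 1 log2 unit between the groups. Fxyd6 fell by 2.34 on the log2 scale (SE 0.32, 5.05-fold lower, adjusted p = 0.00324, limma). The fall was smallest in pair 3, at -1.42, and lay between -2.72 and -2.51 in the other pairs. Of the 15 alternative settings of the fit, 14 kept this call, and the exception was the fit without the intensity trend (adjusted p = 0.0943).

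Of the secreted members, Mmrn1 and Reln each fell on 1 probe set and Nts did not pass. Mmrn1, a matrix protein that platelets and endothelial cells release, read 10.46, 10.59, 10.91 and 10.96 on its brighter probe set (1437260_at) in inflamed samples, against 11.80, 12.07, 11.77 and 12.06 in untreated samples. Both groups were tight and apart. It fell by 1.20 on the log2 scale (SE 0.15, 2.29-fold lower, adjusted p = 0.00195, limma), and 13 of 15 alternative settings kept the call. The exceptions were the fit without the intensity trend (adjusted p = 0.200) and scaling to the pan-endothelial genes (0.0930).

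The dimmer Mmrn1 probe set, 1430621_at, read 4.49, 5.60, 8.04 and 5.85 in inflamed samples, against 6.68, 8.12, 7.78 and 7.95 in untreated samples. Inflamed sample 3 again stood with the untreated samples, and it was higher than its own pair by 0.26. The difference of -1.63 ± 0.60 (SE; 95% interval -2.97 to -0.30) did not pass (adjusted p = 0.153, limma).

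Reln encodes reelin, an extracellular protein known from neuron migration, which collecting lymphatic vessels of mice also release. Its brighter probe set (1449465_at) had 9.84, 11.28, 11.52 and 10.81 in inflamed samples, against 11.52, 12.03, 11.87 and 11.70 in untreated samples. The groups met at the highest inflamed and the lowest untreated sample. Reln fell by 0.91 on the log2 scale (SE 0.20, 1.88-fold lower, adjusted p = 0.0288, limma) and was lower in all 4 pairs. Of 15 alternative settings, 7 kept this call. It ended without the pair block (adjusted p = 0.120), under median centring (0.0964) and without pair 1, 2 or 4 (0.0879, 0.0941 and 0.0760), with a random block (0.0854), without the intensity trend (0.329) and after scaling to the pan-endothelial genes (0.574).

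The second Reln probe set, 1458020_at, read 1.79, 5.06, 6.84 and 5.08 in inflamed samples, against 5.51, 5.58, 7.84 and 8.44 in untreated samples. It was lower in all 4 pairs but scattered widely in both groups, with an SD of 2.11 over inflamed and 1.52 over untreated samples (n = 4). Its difference was -2.15 ± 0.74 (SE; 95% interval -3.81 to -0.49; adjusted p = 0.134, limma).

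Nts, the precursor of the peptide neurotensin, read 8.82, 9.09, 8.78 and 9.25 in inflamed samples, against 6.39, 8.51, 8.25 and 7.99 in untreated samples. Every inflamed value lay above every untreated one, and the spread ran opposite to that of Prox1, with an SD of 0.22 over inflamed and 0.96 over untreated samples (n = 4). The difference of 1.20 ± 0.41 (SE; 95% interval 0.29 to 2.11) did not pass (adjusted p = 0.127, limma). Much of it came from the low untreated sample 1, and it was 0.79 without pair 1.

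**Figure D3:**
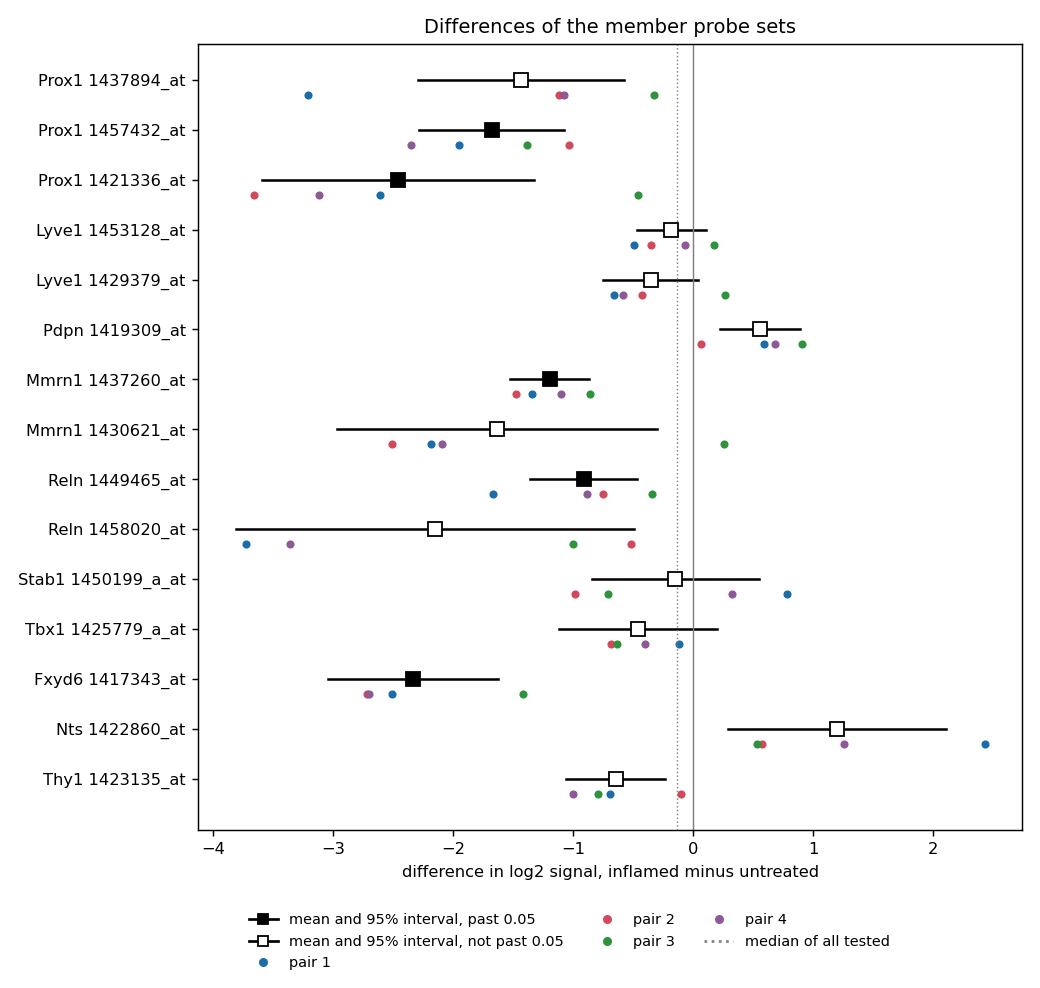
Difference in log2 signal, inflamed minus untreated, of each probe set. Squares and lines give the limma mean and its 95% interval, filled where the adjusted p was under 0.05, coloured points the 4 pairs, and the dotted line the median of all probe sets tested (-0.13). The 5 filled squares all lie left of 0, and Nts and Pdpn are the 2 genes right of 0.

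Among the surface proteins none passed. Lyve1, a hyaluronan receptor related to CD44, read 11.51, 12.11, 12.05 and 12.17 on its brighter probe set (1453128_at) in inflamed samples, against 12.00, 12.46, 11.88 and 12.24 in untreated samples. The groups overlapped, with 3 of the 4 inflamed values inside the untreated range. The difference was -0.18 ± 0.13 (SE; 95% interval -0.47 to 0.10; adjusted p = 0.474, limma), and its call depended on the scaling. It passed as lower under quantile and cyclic loess normalization (adjusted p = 0.0466 and 0.0425) and as higher after scaling to the pan-endothelial genes (0.52, adjusted p = 0.0406), and its sign also turned under median centring (0.12).

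The second Lyve1 probe set, 1429379_at, read 10.29, 11.32, 11.42 and 11.02 in inflamed samples, against 10.95, 11.75, 11.15 and 11.61 in untreated samples. Both Lyve1 probe sets were lower in 3 pairs and higher in pair 3. The difference of the second was -0.35 ± 0.18 (SE; 95% interval -0.75 to 0.04; adjusted p = 0.302, limma), and it was 0.35 when arrays were scaled to the pan-endothelial genes. The lower ends of the 2 Lyve1 intervals were -0.47 and -0.75.

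Pdpn, a mucin-type glycoprotein that binds the platelet receptor CLEC-2, had 11.53, 11.95, 12.13 and 12.40 in inflamed samples, against 10.94, 11.89, 11.22 and 11.71 in untreated samples. It was higher in all 4 pairs, by 0.06 in pair 2 and by 0.59 to 0.91 in the others, while the groups overlapped. The difference of 0.56 ± 0.15 (SE; 95% interval 0.23 to 0.89) did not pass (adjusted p = 0.0601, limma). It passed without pair 2 (adjusted p = 0.0483), under median centring (0.0161), with the stricter filter (0.0354), with a pseudocount of 16 (0.0495) and after scaling to the pan-endothelial genes (0.000826). Fibroblasts and keratinocytes also make podoplanin. The 14 keratinocyte genes on the array summed to 301.7 to 2355 in inflamed and 1327 to 6308 in untreated samples, with Flg at or under the ceiling on all arrays. The part of either cell type in the Pdpn signal was not tested.

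Stab1, a scavenger receptor shared by lymphatic endothelium and tissue macrophages, had 9.61, 9.59, 9.46 and 10.42 in inflamed samples, against 8.83, 10.58, 10.17 and 10.09 in untreated samples. It was higher in 2 pairs and lower in 2, with a difference of -0.15 ± 0.31 (SE; 95% interval -0.85 to 0.55; adjusted p = 0.849, limma). The sign turned in 4 of 15 alternative settings. The 19 monocyte and macrophage genes on the array summed to 1696 to 5638 in inflamed and 728 to 1912 in untreated samples and were higher in all 4 pairs, and inflamed sample 4 was the highest of the inflamed samples on both this sum and Stab1. Untreated sample 2 was higher than it on Stab1, with a macrophage sum of 1912. Their part in the Stab1 signal was not tested.

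Thy1, a lipid-anchored surface protein that in mice also marks T cells and many fibroblasts, had 10.36, 11.01, 10.56 and 10.19 in inflamed samples, against 11.06, 11.11, 11.36 and 11.19 in untreated samples. The groups did not overlap, by a margin of less than 0.1. The difference of -0.65 ± 0.18 (SE; 95% interval -1.06 to -0.24) did not pass (adjusted p = 0.0754, limma). All 4 pairs had the lower value in the inflamed sample, but after scaling to the pan-endothelial genes the difference was 0.058. It passed under quantile and cyclic loess normalization (adjusted p = 0.0265 and 0.0290). The 13 other T and NK cell genes on the array summed to 133 to 809 in inflamed and 374 to 661 in untreated samples, with Nkg7 at or under the ceiling on all arrays, and the fibroblast sum was higher in all 4 pairs. The part of both in the Thy1 signal was not tested.

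Samples of pair 3 differed least on most probe sets of the genes that fell. The smallest change of the 4 pairs belonged to pair 3 on both Mmrn1 probe sets, on Fxyd6, on the brighter Reln probe set and on 2 of the 3 Prox1 probe sets. It belonged to pair 2 on Prox1 1457432_at (-1.03, against -1.39 in pair 3) and on the dimmer Reln probe set (-0.51, against -1.01). The share of all probe sets with their smallest change in pair 3 was not counted. Inflamed sample 3 was the highest of the inflamed samples on 8 of the 15 probe sets, where this held for 23.9% of all probe sets tested. Inflamed sample 1 was the lowest of the inflamed samples on 9 of the 15, against 27.2% of all. Untreated sample 1 was the lowest of the untreated samples on 11 of the 15, against 27.0% of all. Inflamed samples had the larger SD on 11 of the 15 probe sets, against 55.9% of all probe sets.

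The transcripts whose pattern over the 8 arrays came closest to each falling member were found by the root mean square difference of centred log2 signals, over 1 probe set per gene. For the brightest Prox1 probe set these were Arid3b (0.29), She (0.33) and Stap2 (0.33). Mmrn1 was matched by Jmy (0.11), Nr2c2 (0.15) and Uvrag (0.21). Nnt (0.18), Arhgap29 (0.19) and Tmem204 (0.21) came nearest to Reln. The nearest to Fxyd6 were Arrdc3 (0.25), 2810013P06Rik (0.30) and Ebf1 (0.30). The 8 arrays share pairs and the group contrast, so these are descriptions only.

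Other genes of the lymphatic programme were set beside the members, each by its brightest tested probe set. At gene level, 3.84% of 10843 genes were higher and 2.82% lower by this rule, with a median difference of -0.09, and of the 10 members 3 were lower (Mmrn1, Reln and Fxyd6), with a median of -0.55. Of 12 transcription factors known as partners or regulators of Prox1 or of endothelial fate, 2 were lower and 0 higher (median -0.51). Sox18 fell by 2.19 on the log2 scale (SE 0.23, adjusted p = 0.00104, limma), and Foxo1 fell by 1.41. Ets2 (-0.64, adjusted p = 0.0919) and Nr2f2 (-0.59, adjusted p = 0.121) missed the threshold.

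Of 32 further lymphatic genes tested, 9 were lower and 2 higher (median -0.33). Sox18, the polarity gene Pard6g, the tight junction gene Cldn11 and Nrp2, a co-receptor for VEGF-C, had the smallest p, with differences of -2.19, -2.11, -3.48 and -1.71. Of 20 lymphatic valve genes, 5 were lower and 1 higher (median -0.71). Besides Cldn11, Efnb2 fell by 1.42 and Nfatc1 by 1.75, and the guidance factor Sema3a rose by 1.33 (SE 0.21). Hyaluronan and podoplanin partners leaned the other way, with 2 of 9 higher and 0 lower (median 0.44). Cd44, the hyaluronan receptor related to Lyve1, rose by 3.47 and the hyaluronan synthase Has1 by 3.21. For Has1, untreated samples 2 and 4 (1.68 and 2.19) lay under the background ceiling, so its size is loosely set. The pan-endothelial list of 24 counted 4 lower and 1 higher (median -0.72), with differences of -1.71 for Kdr, -2.18 for Tie1 and 1.15 for Ecscr. Among 17 blood capillary genes, 4 were lower and 1 higher (median 0.14), led by Car4 (5.69) and Cd300lg (-6.65). Both sizes rest on values under the background ceiling. Car4 read 2.00, 2.29, 2.07 and 3.81 in untreated samples, whose ceilings were 2.53 to 3.31. Cd300lg read -0.14, 4.14, 0.37 and 0.60 in inflamed samples, whose ceilings were 2.96 to 3.13. Some genes stand in several of these lists. Leukocytes also express Cd44. Beside these lists, the summed signal of neutrophil genes was 2134 to 3463 in inflamed and 223 to 678 in untreated samples over 14 genes on the array, of which Ltf was at or under the ceiling on all arrays. Of these 14, 4 were at or under the ceiling on all inflamed arrays, and only 4 passed the filter on low signals, so few genes carry the sum. The summed signal of 10 pan-leukocyte genes was 1349 to 5911 in inflamed and 179 to 855 in untreated samples, and the part of leukocytes was not tested.

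**Figure D4:**
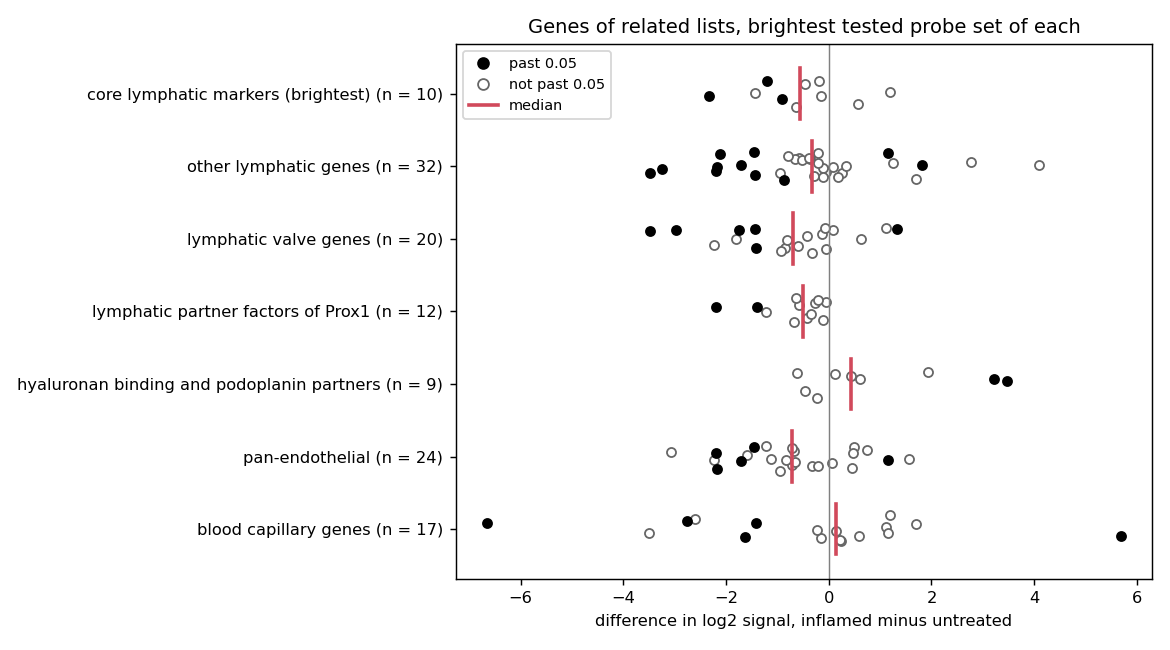
Difference in log2 signal, inflamed minus untreated, of each gene (points) of the lymphatic markers and of 6 related lists, with the number tested beside each name. Filled points passed the test and red lines are medians. The medians of the lymphatic, valve and pan-endothelial lists lie below 0, between -0.72 and -0.33, and that of the hyaluronan and podoplanin partners above it, at 0.44.

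No call of a member survived when the intensity trend of the variance was left out, where 0 of the 15 passed. Most calls in the whole table were lost there too: 99 higher and 49 lower of all 22519 probe sets, against 715 and 545 with the trend. Falls of Fxyd6 and of Prox1 on 1421336_at were the 2 that passed when arrays were scaled to the mean of the 24 pan-endothelial genes, which itself was 0.71 lower in inflamed samples, and on that scale Pdpn, Nts and the brighter Lyve1 probe set passed as higher.

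**Figure D5:**
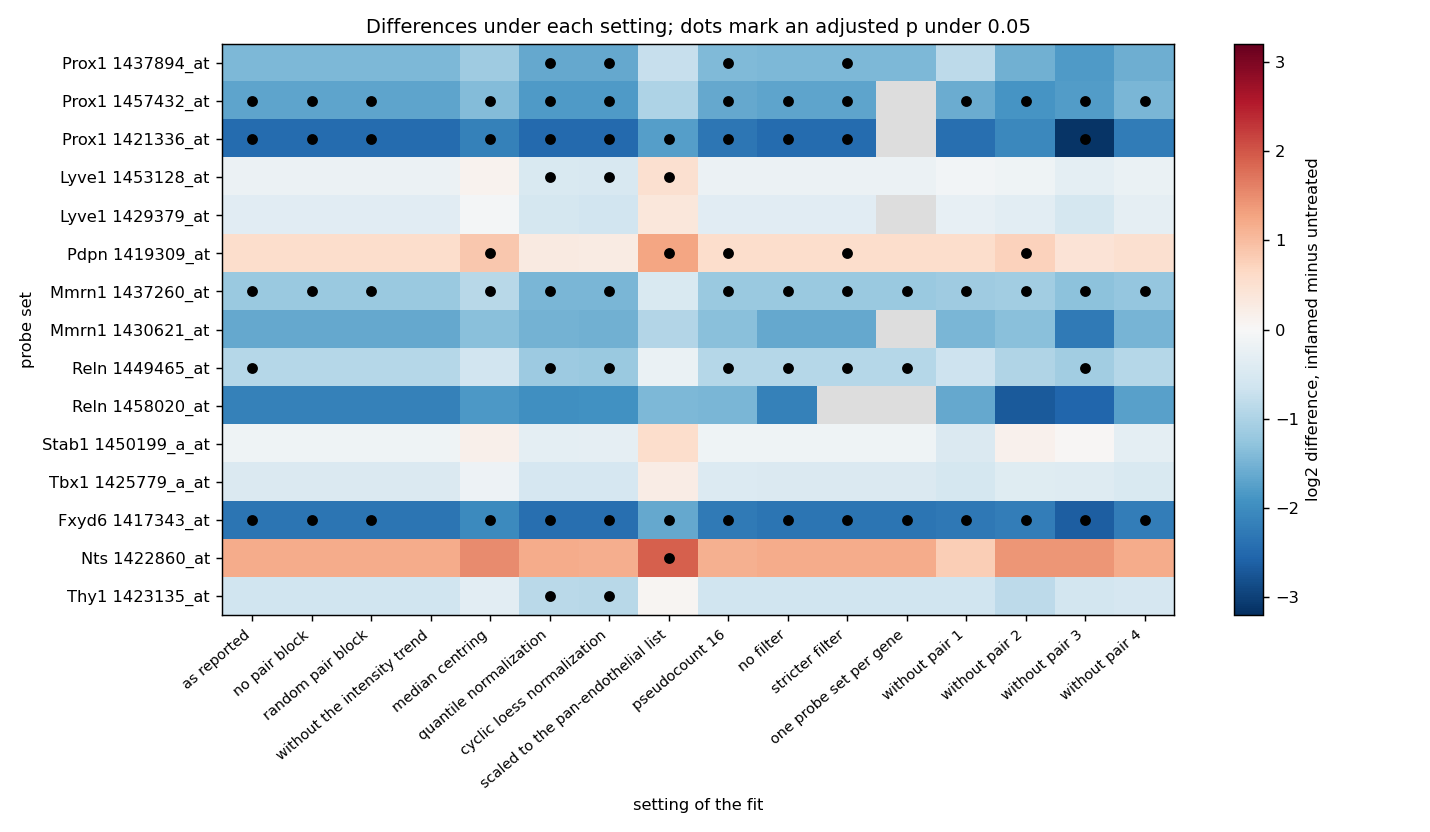
Difference in log2 signal, inflamed minus untreated, of each probe set (rows) under the reported fit and its 15 alternatives (columns), from blue for lower to red for higher in inflamed samples; grey cells were not tested. Dots mark an adjusted p under 0.05, and the column without the intensity trend holds none.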

How the data were processed

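The deposited table holds 1 intensity per probe set and array, a MAS5 signal on a linear scale per the submitters' processing notes. Its version and scaling target are not stated in the sources read. Of 45101 probe sets, 64 controls were left out. Probe sets were named from GEO's platform annotation, and 0 member symbols needed updating against RefSeq. No 2 arrays were identical. Mean signal per array was 143.5 to 165.1 in inflamed and 129.2 to 149.8 in untreated samples, and the number of arrays limits the precision.

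Signals were taken to log2 without a pseudocount. Array medians differed by at most 0.47, so no scaling was added. They were 3.27, 3.41, 3.40 and 3.44 in inflamed samples 1 to 4, against 3.72, 3.56, 3.74 and 3.73 in untreated ones. Every inflamed median thus lay below every untreated one, while mean signal was higher in the inflamed sample of all 4 pairs. The medians lie among dim probe sets, and the offset was not the same at all signal levels. The median difference was -0.13 over all probe sets tested. It was 0.002 over those with a mean log2 signal of at least 6 (the stricter filter). Median centring makes the array medians equal by the same shift for all probe sets of an array. It moved the median difference of all probe sets tested to 0.17. Quantile and cyclic loess normalization, whose shifts vary with signal level, gave -0.04 and -0.01. The dimmer part of the table, below the median of mean log2 signals (3.30), was left out. limma 3.58.1 in R 4.3.3 (lmFit, eBayes with an intensity trend) modelled pair and group as fixed effects (2-sided tests) and was checked on simulated data. The simulated data were normal, with no pair effect and equal spread in both groups. They thus do not bear on probe sets whose spread differs between the groups. The series' design text gives the pairing; the 2 samples of pairs 1 to 4 had deviations correlating at 0.14, 0.01, 0.07 and 0.03. Samples are pools, so p-values refer to pools of mice.

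The ceiling is the 95th percentile of 27 bacterial controls per array. Named genes are all members, up to 4 genes of smallest p per list, and the 3 nearest patterns of Prox1 and of each member past the threshold. Members and lists were chosen with earlier results of these data known.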

Additional observations from a re-analysis of the deposited data

Results flagged for a closer look

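Of 30 sets of 4 samples examined (15 probe sets in each group), 2 held a sample far from the other 3, by the size of its gap to the nearest relative to the whole range. Chance alone flags about 1 in 20 such sets. Inflamed sample 4 had a Stab1 signal of 10.42, where the other inflamed samples lay between 9.46 and 9.61. Inflamed sample 1 had a Tbx1 signal of 7.82, with the others between 8.81 and 8.94. The Stab1 value lay within the untreated range (8.83 to 10.58), and the Tbx1 value lay below the lowest untreated sample (7.94), which was also sample 1.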

How the results depend on the processing

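Member probe sets lower in inflamed samples numbered 5, and 4 with no replicate block or a random one; the call that the pair block made was that of the brighter Reln probe set, and the block changed no other member call. The count was 0 without the intensity trend, 8 under quantile and under cyclic loess normalization, and 2 when scaled to the pan-endothelial genes. It was 4 under median centring, 6 with a pseudocount of 16, 6 of 14 with the stricter filter and 5 with no filter. It was 3 of 10 with 1 probe set per gene (fewer features tested), and 3 to 5 when a pair was left out. Members higher numbered 0, against 1 under median centring, 1 with a pseudocount of 16, 1 with the stricter filter, 3 when scaled to the pan-endothelial genes, and 0 to 1 when a pair was left out. Signs turned for Lyve1 1453128_at (0.12 under median centring, 0.52 scaled to the pan-endothelial genes), the other Lyve1 probe set (0.35, scaled so), Tbx1 (0.25, scaled so), Thy1 (0.058, scaled so) and Stab1 (0.16 under median centring, 0.56 scaled so, and -0.46 to 0.13 when a pair was left out, with 0.13 without pair 2 and 0.04 without pair 3); the cause was not tested. Over all 22519 probe sets, 715 higher and 545 lower became 99 and 49 without the trend, 1315 and 402 under median centring, 2529 and 267 scaled to the pan-endothelial genes, and 330 to 424 and 189 to 230 when a pair was left out. They became 592 and 570 under quantile normalization, 609 and 543 under cyclic loess normalization, and 790 and 623 with a pseudocount of 16. They were 587 and 500 with no block and 695 and 667 with a random one. With other numbers tested, they were 712 and 455 of 10911 with the stricter filter, 628 and 481 of 45037 with no filter, and 424 and 328 of 10843 with 1 probe set per gene. Median centring moved the median difference of all probe sets to 0.17 and the pan-endothelial scaling to 0.57. With the highest bacterial control as the ceiling, no member's count of arrays above background changed.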
